A study of Oryza sativa Japonica Group with 8 samples.

Results

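Rice seedlings raised in continuous red light were compared with seedlings raised in darkness, by gene family and pathway. The members are 4 of the 8 expression arrays of the study: 2 arrays of wild-type (WT) red light seedlings against 2 arrays of WT dark seedlings, chosen by their labels. WT is the cultivar Nipponbare (Oryza sativa Japonica Group). The red light group was germinated and grown for 5 days on MS medium at 28 °C under LEDs giving an unbroken red light of 50 µmol per m2 and second, and the dark group was grown likewise without light and harvested under dim green light. Above-ground tissue was taken in the subjective morning, and the labels call the replicates of a group biological. The other 4 arrays are of Ubi::OsYHB in the Nipponbare background, which drives a constitutively active allele of phytochrome B from the maize Ubiquitin promoter. They comprise 2 arrays in red light and 2 in darkness, with 1 array of line #1 and 1 of line #9 in each, and are used here only to set the WT response beside theirs. Both WT groups lack the transgene.

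A seedling that germinates in darkness grows long and pale and keeps its plastids undeveloped, a habit called etiolation. Red light converts phytochromes to their active form, growth of the shoot axis slows, leaves unfold, and plastids become photosynthetic chloroplasts. This change, de-etiolation, is known for switching on nuclear genes of photosynthesis and pigment synthesis and for lowering genes of the dark growth habit, among them that of phytochrome A itself.

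The deposited values are 1 intensity per probe set and array, and all changes below are differences of log2 intensity, WT red light minus WT dark, so 1 unit is a factor of 2. They were fitted with limma over all 8 arrays, and a gene was called changed at a Benjamini-Hochberg adjusted p below 0.05 over 57258 probe sets. Each gene stands on 1 probe set, and every group has n = 2. Over all probe sets the replicates correlated at 0.9962 in WT red light and at 0.992 in WT dark on the log2 scale. The shoot marker genes summed to an intensity of 52331 and 53022 in red light, against 24608 and 26400 in darkness, with 5 of 7 called higher. These markers also belong to the photosynthesis and chlorophyll synthesis lists below, so their sums cannot tell tissue make-up from the light response. Root markers summed to 992 and 798 in red light, against 1144 and 813 in darkness, with 1 of 8 called, and seed markers to 308 and 579, against 573 and 380, with 0 of 7 called (limma). Their part in the results was not tested. In whole shoots, fewer cells of a type and less RNA per cell cannot be told apart.

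Red light changed the signal of 5570 of 57258 probe sets (9.73%), with 2944 higher (5.14%) and 2626 lower (4.59%). Without WT red light replicate 1 the total was 2604, and without WT red light replicate 2 it was 2386. Of 17905 genes, 1608 rose (8.98%) and 1456 fell (8.13%), and of 2457 genes with a name other than a locus number 232 rose (9.44%) and 222 fell (9.04%). These shares are the background against which each family below is read. Large changes were more often rises: 277 genes rose and 112 fell by at least 2 log2 units, and 30 rose and 15 fell by at least 4. The median change of all genes was -0.10. The groups of arrays did not overlap for 59.8% of genes, with red light above dark for 21.9% and below for 37.9%.

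**Figure D1:**
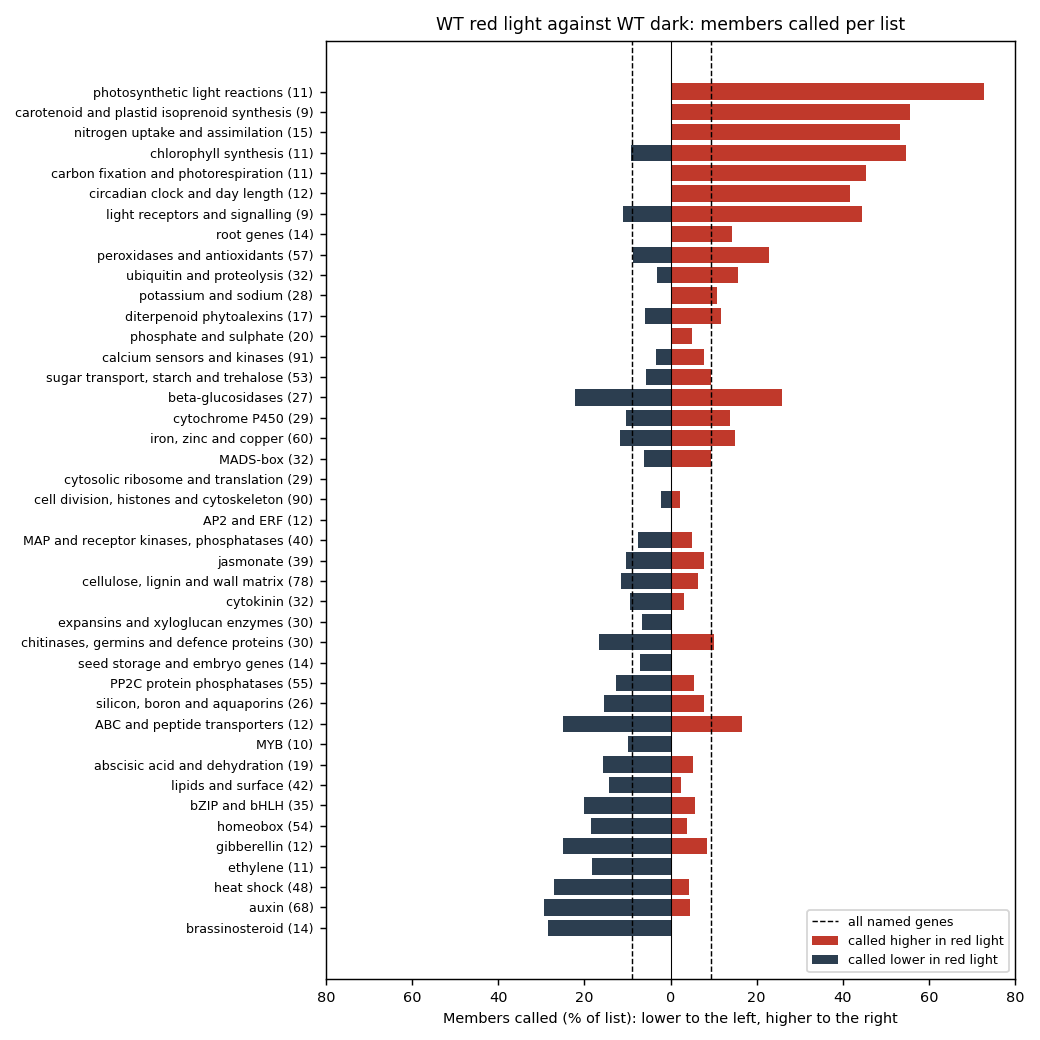
Share of the members of each list called higher (right) or lower (left) in WT red light against WT dark, in percent of the list, for lists of at least 9 genes (number of genes in brackets). Dashed lines mark the shares of all named genes, 9.44% higher and 9.04% lower. The photosynthesis, pigment and nitrogen lists reach farthest to the right, and the brassinosteroid, auxin and heat shock lists farthest to the left.

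Genes of photosynthesis rose together. Of 11 genes of the light reactions 8 rose and none fell, with a median change of 1.15, and of 11 genes of carbon fixation and photorespiration 5 rose and none fell, with a median of 0.57. RCABP69, a chlorophyll a/b-binding protein of the antenna, had log2 intensities of 13.04 and 13.05 in red light, against 10.46 and 11.07 in darkness, a rise of 2.28 (SE 0.19, limma adjusted p = 0.000225). PSAH, a subunit of photosystem I, had 13.06 and 12.96 in red light, against 11.20 and 11.12 in darkness. It rose by 1.85, and LFNR1, the leaf ferredoxin-NADP reductase that ends the electron transport chain, rose by 1.90. The antenna gene CAB2R was already bright in darkness, at 12.55 and 12.72, and stood at 13.77 and 13.80 in red light, a rise of 1.15. All of these had dark intensities above the upper quartile of the dark arrays, 7.47 and 7.44.

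In carbon metabolism the changes were uneven. CFBP1, a cytosolic fructose-1,6-bisphosphatase of sucrose synthesis, had 11.28 and 11.12 in red light, against 7.07 and 7.07 in darkness, a rise of 4.13 (SE 0.13, limma adjusted p = 1.02e-05). The glycolate oxidases, which act in photorespiration, split: GLO5 had 11.56 and 11.66 in red light, against 8.61 and 8.96 in darkness, and GLO1 had 11.30 and 11.42, against 9.21 and 9.45. They rose by 2.83 and 2.03, although a dimmer probe set of GLO1 changed by -0.34, whereas GLO3 and GLO4 had changes of -0.08 and -0.15 that were not called. The glycine cleavage gene GDCSH rose by 1.44 (0.05 on its dimmer probe set), and rca, the activase of Rubisco, by 1.12. The Rubisco small subunit gene RBCS had 13.81 and 13.81 in red light, against 13.54 and 13.48 in darkness, and its change of 0.30 was not called (limma adjusted p = 0.127). The dimmer probe sets of RBCS changed by 0.65 to 1.39.

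Chlorophyll synthesis rose at its committed steps and turned over at the light-dependent one. Of 11 genes 6 rose and 1 fell, with a median change of 0.57. GluTR, glutamyl-tRNA reductase at the head of the pathway, had 12.12 and 12.22 in red light, against 10.90 and 10.55 in darkness, a rise of 1.44. CHLH, the magnesium chelatase subunit that binds the porphyrin, had 12.12 and 12.08 in red light, against 10.11 and 9.80 in darkness, a rise of 2.15 (SE 0.18, limma adjusted p = 0.000224), although its dimmer probe set changed by -0.42. CHLI, another chelatase subunit, rose by 1.45, and the geranylgeranyl reductase gene CHLP by 0.95. The pair of genes of protochlorophyllide oxidoreductase, the enzyme that needs light for its reaction, went opposite ways. PORA had 11.40 and 11.76 in red light, against 12.69 and 12.77 in darkness, and fell by 1.15, and PORB had 11.79 and 11.79 in red light, against 10.69 and 11.16, a rise of 0.86. PORB lost its call without either WT red light replicate (limma adjusted p from 0.0754 to 0.0789).

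Carotenoid genes rose beside the chlorophyll genes. Of 9 genes of carotenoid and plastid isoprenoid synthesis 5 rose and none fell, with a median of 1.19. Phytoene synthase makes the first committed carotenoid, and of its 3 genes PSY2 had 10.54 and 10.67 in red light, against 8.29 and 8.63 in darkness, and PSY1 had 10.30 and 10.58, against 8.89 and 9.11. PSY2 rose by 2.15 and PSY1 by 1.44, while PSY3 had a change of -0.24 that was not called. CLA1, which encodes the entry enzyme of the plastid isoprenoid pathway, rose by 1.48 (-0.06 on its dimmer probe set), the zeaxanthin epoxidase gene OsZEP1 by 1.19 and the phytoene desaturase gene PDS by 0.68. Of 5 genes listed under chlorophyll breakdown 3 rose, RCCR1 (red chlorophyll catabolite reductase, 1.00), NYC1 (0.63) and an entry listed as both CAO and Lls1 (2.07), whose names stand for different steps of chlorophyll metabolism. NYC1 lost its call without either WT red light replicate or WT dark replicate 2 and PDS without WT red light replicate 2 (limma adjusted p from 0.0507 to 0.0994).

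**Figure D2:**
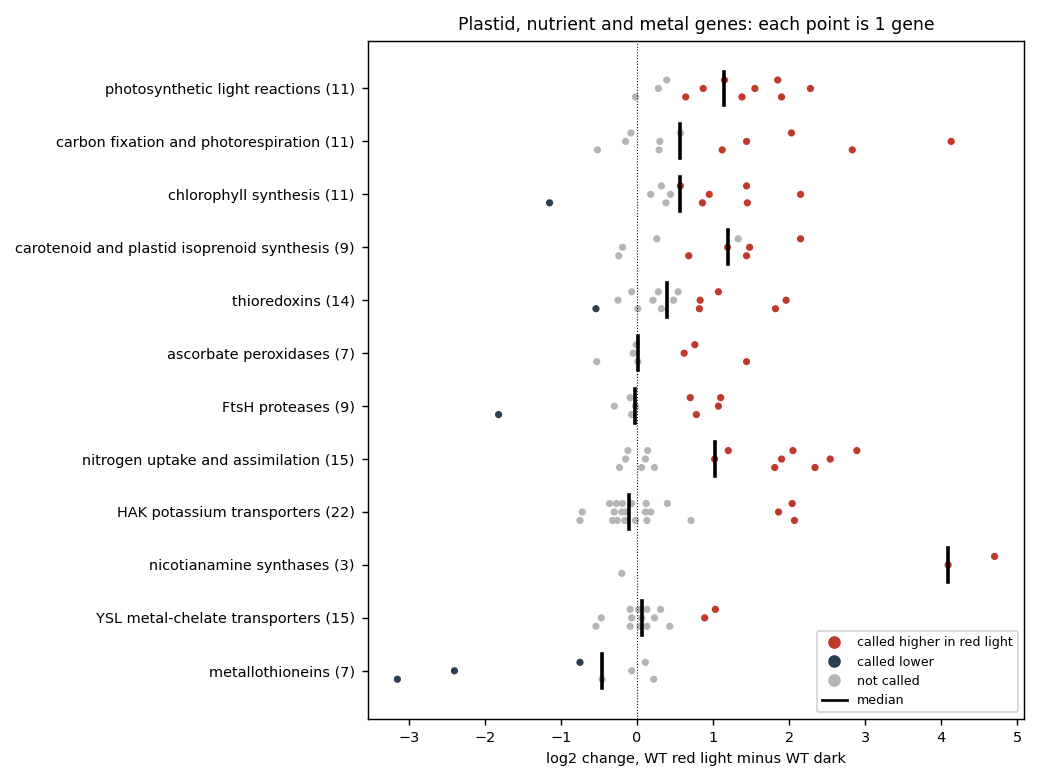
Change of each gene in plastid, nutrient and metal families, in log2 units of WT red light minus WT dark. Each point is 1 gene, red where called higher, dark where called lower and grey where not called, the black bar is the family's median, and the number of genes is in brackets. In the photosynthesis and pigment lists most points lie right of 0, whereas in the HAK and YSL families a few genes rise and the rest cluster at 0.

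Redox and proteolysis genes known from plastids were among the rises. Of 57 genes of peroxidases and antioxidants 13 rose and 5 fell, with 8 rising without WT red light replicate 1 and 6 without WT red light replicate 2. Of 14 thioredoxins 5 rose and 1 fell. Thioredoxins f, m and y carry electrons from photosynthesis to plastid enzymes, and a gene of each type rose. OsTrx03, listed as thioredoxin f, had 11.09 and 10.99 in red light, against 8.88 and 9.27 in darkness, a rise of 1.96 (SE 0.17, limma adjusted p = 0.000286). OsTrxm5 had 11.76 and 11.74 in red light, against 9.97 and 9.89 in darkness, a rise of 1.82, and OsTrxy rose by 0.83. Ascorbate peroxidases remove hydrogen peroxide, and 3 of 7 of their genes rose, with APX8 at 11.21 and 11.44 in red light, against 10.07 and 9.69 in darkness. APX8 rose by 1.44 and APX4 by 0.76. The glutaredoxin gene GRXS7 rose by 1.02. Falls included the cytosolic superoxide dismutase gene SODCC.2 (-0.93), the catalase gene CatB (-0.67) and the glutaredoxin gene GRXC15 (-0.95). GRXC15 lost its call without WT red light replicate 1 or WT dark replicate 2 and CatB without WT red light replicate 2 (limma adjusted p from 0.059 to 0.2).

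The FtsH proteases, membrane proteases of chloroplasts and mitochondria, divided. Of 9 genes 4 rose: FTSH9 (1.10), FTSH1 (1.07), FTSH2 (0.78) and FTSH7 (0.70). FTSH2 had 11.25 and 11.33 in red light, against 10.40 and 10.63 in darkness, and FTSH1 had 10.94 and 11.04, against 9.62 and 10.23. FTSH3 was the member that fell, at 4.46 and 4.20 in red light, against 6.23 and 6.08 in darkness (-1.82, SE 0.14, limma adjusted p = 0.000161). The Clp protease gene CLPD2 rose by 1.19. Of the whole list of 32 genes of ubiquitin and proteolysis 5 rose and 1 fell, and without WT red light replicate 2 only 1 rose. All 9 proteasome subunits on the array stayed between -0.21 and 0.05, and none was called. FTSH2 and CLPD2 lost their calls without WT red light replicate 2, FTSH7 without either WT red light replicate or WT dark replicate 2, and FTSH1 without either WT red light replicate (limma adjusted p from 0.0534 to 0.115).

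Of 15 genes of nitrogen uptake and assimilation 8 rose and none fell, with a median of 1.02. Of the same list 5 rose on a log2(intensity + 16) scale and without WT red light replicate 1. Nitrate reductase makes the first step of assimilation, and its gene NIA1 had 10.46 and 11.04 in red light, against 7.70 and 8.03 in darkness, a rise of 2.89 (SE 0.24, limma adjusted p = 0.000257), with 0.24 on its dimmer probe set. Ammonium is then fixed in plastids by glutamine synthetase and glutamate synthase. GLN2, the plastid glutamine synthetase, had 12.84 and 12.93 in red light, against 11.84 and 11.90 in darkness, and Fd-GOGAT, the ferredoxin-dependent glutamate synthase, had 12.30 and 12.46, against 10.39 and 10.74. They rose by 1.02 and 1.81. The further glutamate synthase gene GLT2 rose by 2.54. GLT2 lost its call without either WT red light replicate (limma adjusted p from 0.0545 to 0.0561).

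Of 8 ammonium transporters 3 rose and the others had changes between -0.23 and 0.14. AMT1 had 9.61 and 9.28 in red light, against 7.38 and 6.83 in darkness, a rise of 2.34. AMT2-1 had 7.66 and 7.61 in red light, against 5.66 and 5.51 in darkness, a rise of 2.05, and AMT3-3 rose by 1.90 with arrays farther apart, at 5.84 and 4.53, against 3.56 and 3.02. Among potassium carriers of the HAK family 3 of 22 rose, HAK1 (2.07), HAK17 (2.04) and HAK16 (1.86), and the other members had a range from -0.75 to 0.71. HAK1 is also one of the root markers. The phosphate transporter gene OsPht1;1 rose by 1.64, the only call among 20 genes of phosphate and sulphate. AMT3-3 lost its call without WT red light replicate 1 or either WT dark replicate, HAK1 without any 1 of the 4 WT arrays, and OsPht1;1 without either WT red light replicate or WT dark replicate 2. HAK16 did so without WT red light replicate 1 (limma adjusted p from 0.0502 to 0.254).

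A few genes of iron acquisition rose steeply, and 3 metallothionein genes fell. Nicotianamine chelates iron and other metals and is also the precursor of the phytosiderophores with which grasses take up iron. Of 3 nicotianamine synthase genes 2 rose. NAS1 had 8.73 and 9.56 in red light, against 5.64 and 3.25 in darkness, a rise of 4.70 (SE 0.68, limma adjusted p = 0.00363), and NAS2 had 8.26 and 8.95, against 5.16 and 3.86, a rise of 4.09. The dark arrays lay 2.39 log2 units apart for NAS1, and both were below both red light arrays. NAAT1, which converts nicotianamine onward, had 7.78 and 8.40 in red light, against 4.75 and 3.94 in darkness, a rise of 3.75. The metal transporter gene Nramp1 had 9.01 and 9.83 in red light, against 5.58 and 5.79 in darkness, a rise of 3.73 (SE 0.44). An entry listed as both IRO3 and OsIRO2, names that stand for different bHLH regulators of iron genes, rose by 2.34. It is called IRO3 below.

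Of 15 YSL genes YSL12 (1.03) and YSL16 (0.89) rose and none fell, and of 10 genes of the ZIP and IRT families IRT2 rose (1.40) and ZIP3 (-1.98) and ZIP4 (-0.78) fell. Metallothioneins are small cysteine-rich proteins that bind copper and zinc, and 3 of 7 of their genes fell. MT4C had 6.12 and 5.54 in red light, against 9.18 and 8.78 in darkness, and fell by 3.15 (SE 0.21, limma adjusted p = 8.93e-05). MT1B had 9.05 and 9.41 in red light, against 12 and 11.25 in darkness, and fell by 2.4, and MT2A fell by 0.75, whereas MT1A and MT2B remained near their dark signal at changes of 0.11 and -0.07. Over the whole list of 60 genes of iron, zinc and copper 9 rose and 7 fell, and without WT red light replicate 2 the falls numbered 2. YSL12 and ZIP4 lost their calls without any 1 of the 4 WT arrays, ZIP3 without either WT red light replicate or WT dark replicate 1, and IRT2 without WT red light replicate 2 or WT dark replicate 2. YSL16 did so without WT red light replicate 1 and MT2A without WT red light replicate 2 (limma adjusted p from 0.0537 to 0.255).

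**Figure D3:**
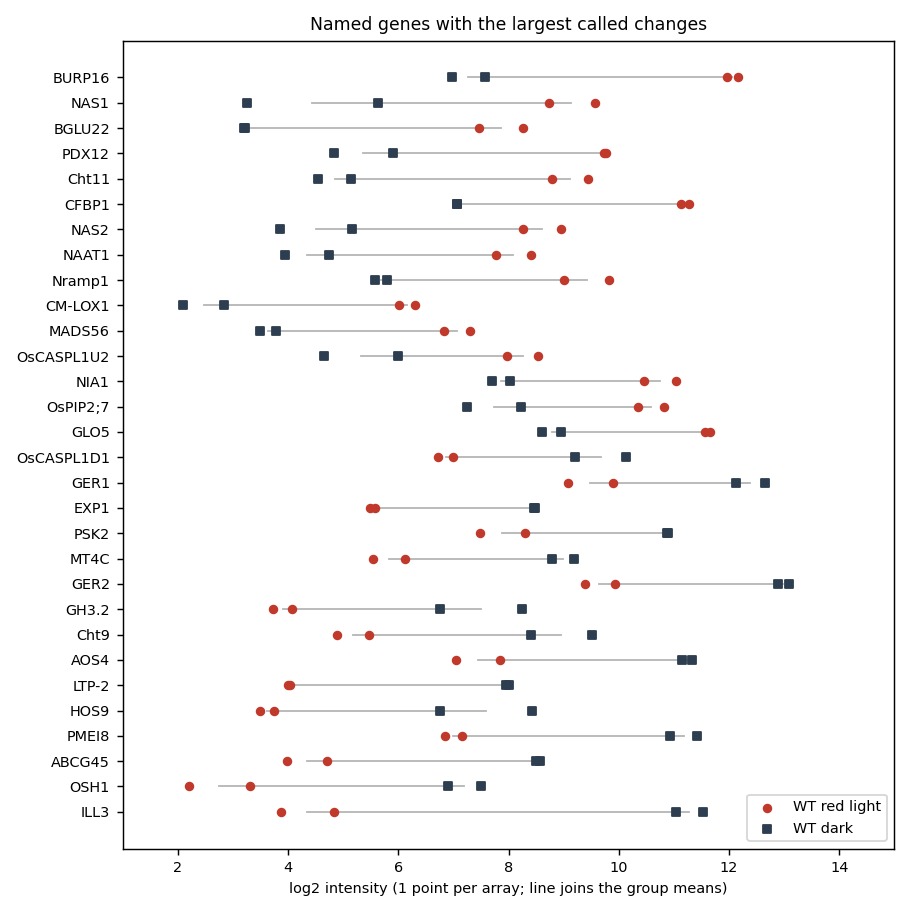
Log2 intensity on each array for the 15 named genes with the largest called rises (upper rows) and the 15 with the largest called falls (lower rows). Red circles are WT red light arrays, dark squares WT dark arrays, and grey lines join the group means. In all 30 genes, chosen for their change between these same arrays, both red light arrays lie on the same side of both dark arrays. The same holds for 59.8% of all genes. ILL3 has the widest gap.

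Light signalling and clock genes changed modestly. Of 9 light receptor and signalling genes 4 rose and 1 fell, and 2 rose without either WT red light replicate. PHYA, the light-labile phytochrome, had 10.42 and 10.47 in red light, against 11.79 and 11.48 in darkness, and fell by 1.19 (SE 0.13, limma adjusted p = 0.000989), while PhyB (-0.26) and phyC (-0.15) were not called. GLK1 and GLK2 encode regulators of chloroplast development, and GLK1 had 11.11 and 11.13 in red light, against 9.94 and 9.94 in darkness. GLK1 rose by 1.18, GLK2 by 0.67, the blue light receptor gene PHOT2 by 0.99 and the photolyase-related cryptochrome gene CRYD by 0.68. Of 12 clock and day-length genes 5 rose and none fell, with 2 rising without WT red light replicate 2. They included PCL1, a component of the evening complex, which rose by 1.80 with its dark arrays at 8.95 and 10.03, and PRR37, listed as HD2, which rose by 1.12. The flowering regulators Hd1 and GHD8 rose by 0.99 and 1.00, and the morning clock gene CCA1 had a change of 0.44 that was not called. Hd1 and GHD8 lost their calls without WT red light replicate 2, GLK2 without either WT red light replicate or WT dark replicate 1, and CRYD without either WT red light replicate or WT dark replicate 2. PCL1 did so without WT red light replicate 1 (limma adjusted p from 0.0532 to 0.128).

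Among MADS-box factors 3 of 32 rose (9.375%, against 9.44% of all named genes) and 2 fell (6.25%, against 9.04%). MADS56, a relative of the flowering activator MADS50, had 6.83 and 7.30 in red light, against 3.78 and 3.49 in darkness, a rise of 3.44 (SE 0.32, limma adjusted p = 0.000422). MADS50 had 6.97 and 7.09 in red light, against 6.17 and 5.89 in darkness, a rise of 1.00, and MADS57 rose by 0.62. NMADS1 (-1.58) and MADS16 (-0.86), known as floral organ genes, fell. The florigen gene Hd3a was not called. MADS57 lost its call without any 1 of the 4 WT arrays and MADS16 without either WT red light replicate (limma adjusted p from 0.0605 to 0.265).

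Of 54 homeobox genes 10 fell, 2 rose and the others were not called. Class I KNOX genes are known for keeping the shoot meristem and internodes in an undetermined state, and 3 of their 5 measured genes fell. OSH1 had 3.31 and 2.2 in red light, against 7.50 and 6.90 in darkness, and fell by 4.44 (SE 0.40, limma adjusted p = 0.000334). HOS9, also named OSH71, had 3.74 and 3.50 in red light, against 8.43 and 6.75 in darkness, and fell by 3.97, and HOS16, also named OSH6, had 3.54 and 3.26, against 6.68 and 5.34, and fell by 2.61. All 3 were below the median of the arrays in red light, 4.36 and 4.35 on the log2 scale. The remaining members, OSH43 and HOS13, had changes of -0.30 and -0.32 that were not called. Of 4 class II KNOX genes none fell, and HOS59 rose by 0.86. HOS59 lost its call without WT red light replicate 2 (limma adjusted p = 0.109).

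The HD-Zip classes I and II hold leucine zipper homeobox factors, and in Arabidopsis members of class II are known to respond to phytochrome. Of 8 rice class II genes HOX17 (-1.47), HOX1 (-1.27) and Hox28 (-0.93) fell. HOX1 had 8.18 and 8.22 in red light, against 9.72 and 9.22 in darkness, and HOX17 had 3.56 and 3.71, against 5.11 and 5.10. Of 12 class I genes hox14 (-1.68) and HOX8 (-1.51) fell. None of 8 genes of class IV, the ROC genes of the epidermis, was called, and their changes spanned -0.30 to 0.22. hox14 lost its call without either WT red light replicate (limma adjusted p from 0.0953 to 0.136).

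Of 68 auxin genes 20 fell and 3 rose, with a median of -0.25. The falls numbered 13 with only the 4 WT arrays in the fit, 13 without WT dark replicate 1, 9 without WT red light replicate 1 and 11 without WT red light replicate 2. The supply of free auxin is set in part by conjugation to amino acids and by hydrolysis of the conjugates. ILL3, a conjugate hydrolase, had 4.84 and 3.87 in red light, against 11.53 and 11.03 in darkness, and fell by 6.93 (SE 0.29, limma adjusted p = 1.7e-05). It was the member with the largest fall among named genes, and the other 6 hydrolase genes were not called. GH3.2, which makes auxin conjugates, had 3.72 and 4.08 in red light, against 8.24 and 6.75 in darkness, and fell by 3.60. Of 9 GH3 genes 3 fell, and the 1 that rose (0.51) is also counted with the jasmonate genes.

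In auxin transport PIN4, an efflux carrier gene, had 3.83 and 4.54 in red light, against 6.38 and 5.33 in darkness, and fell by 1.67. Aux/IAA proteins repress auxin response and are themselves induced by auxin, and of their 26 genes 9 fell and 1 rose. IAA20 had 4.86 and 4.75 in red light, against 7.38 and 6.97 in darkness, and fell by 2.37 (SE 0.17, limma adjusted p = 0.000133). IAA18 had 7.67 and 7.52 in red light, against 9.76 and 9.24 in darkness, and fell by 1.90, and IAA9 fell by 1.77. The member that rose was IAA8 (0.68). Of 17 auxin response factors 5 fell by 0.47 to 0.81 and none rose. SAUR39, a small auxin-up RNA gene, rose by 2.24 with its dark arrays at 7.48 and 6.11. PIN4 and IAA9 lost their calls without WT red light replicate 1, IAA8 without either WT red light replicate or WT dark replicate 2, and SAUR39 without either WT red light replicate (limma adjusted p from 0.0726 to 0.135).

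Other growth hormones gave smaller changes. Of 14 brassinosteroid genes 4 fell and none rose: the receptor gene BRI1 (-0.94), the response gene BU1 (-0.95), the kinase gene GSK1 (-0.80) and the transcription factor gene BZR2 (-0.50). BRI1 had 9.73 and 9.98 in red light, against 10.98 and 10.61 in darkness, and without WT red light replicate 1 only 1 of the 14 fell. Of 12 gibberellin genes 3 fell and 1 rose: the synthesis gene GA20OX2 (-1.20), GAMYB (-0.52) and the DELLA repressor gene SLR1 (-0.48) fell, and the synthesis gene KAO rose by 0.85. Among 32 cytokinin genes LOG, which activates cytokinin, rose by 0.95, while CKX5, which degrades it, fell by 1.14. Of 11 ethylene genes the synthesis gene ACO1 (-1.22) and the receptor gene ERS2 (-0.81) fell, and none of 3 strigolactone genes was called. BZR2, GA20OX2, GAMYB and SLR1 lost their calls without either WT red light replicate or WT dark replicate 1, KAO, LOG and CKX5 without WT red light replicate 2, and BRI1 and GSK1 without WT red light replicate 1. ERS2 did so without WT red light replicate 1 or WT dark replicate 1 (limma adjusted p from 0.0597 to 0.223).

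Single genes of jasmonate synthesis changed in opposite directions. CM-LOX1, a lipoxygenase, had 6.31 and 6.01 in red light, against 2.83 and 2.1 in darkness, a rise of 3.69 (SE 0.48, limma adjusted p = 0.00227). Allene oxide synthase takes the next step: AOS4 had 7.85 and 7.04 in red light, against 11.32 and 11.15 in darkness, and fell by 3.79, and AOS2 had 5.80 and 5.89, against 4.63 and 4.55, a rise of 1.25. The other AOS genes had changes of -0.12 and -0.24 that were not called. Of 13 JAZ repressor genes 3 fell, led by JAZ13 (-1.80). Of all jasmonate genes 7.692% rose and 10.26% fell, against 9.44% and 9.04% of all named genes. Over the 39 jasmonate genes 3 rose and 4 fell, and 2 fell without either WT red light replicate. JAZ13 lost its call without WT red light replicate 1 or WT dark replicate 2 and AOS2 without WT red light replicate 2 (limma adjusted p from 0.0578 to 0.0849).

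**Figure D4:**
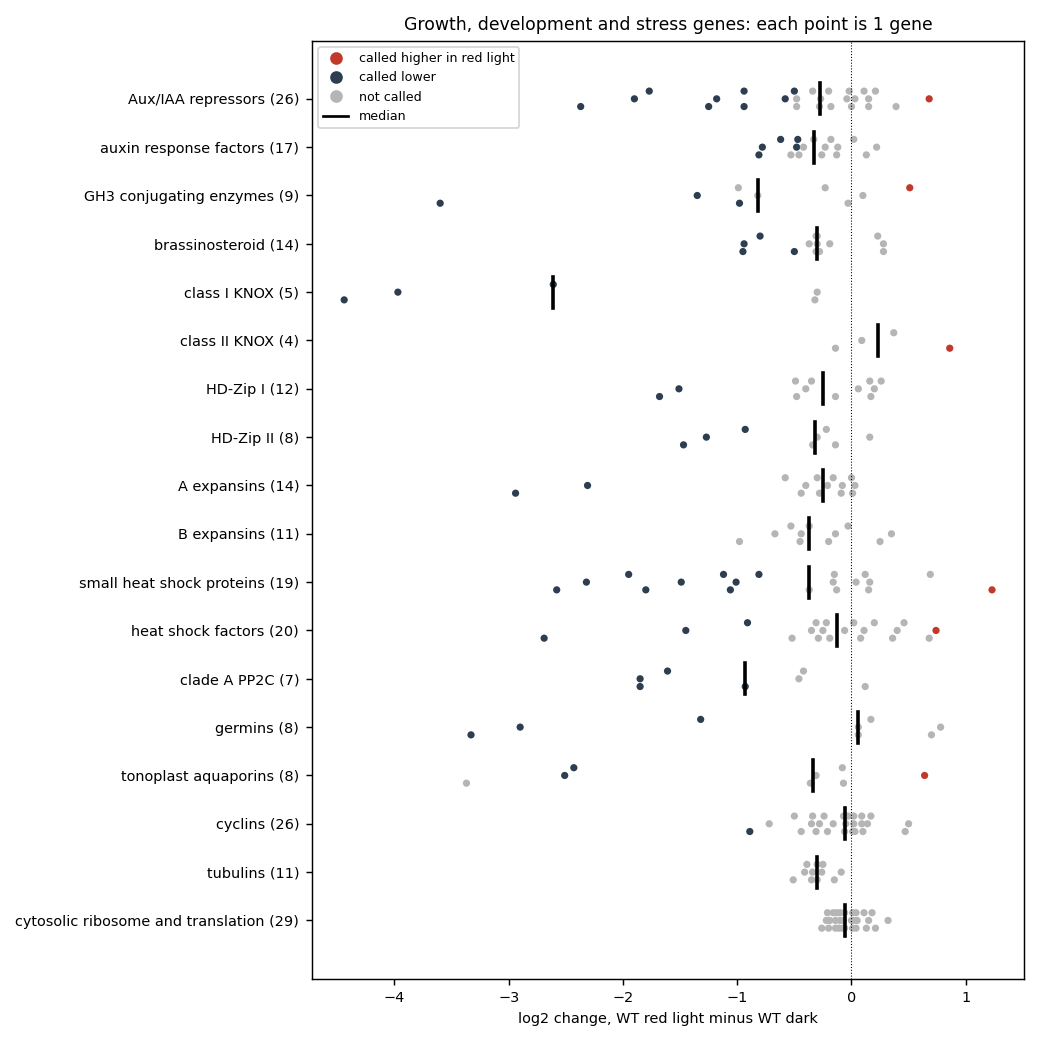
Change of each gene in growth, development and stress families, in log2 units of WT red light minus WT dark. Each point is 1 gene, coloured by its call, the black bar is the family's median, and the number of genes is in brackets. Falls reach below -2 in the auxin, class I KNOX, expansin, small heat shock, germin and aquaporin families, while no cyclin, tubulin or ribosomal gene reaches -1 and 1 cyclin (CYCP2-1, -0.89) is called.

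The expansins, which loosen cell walls, changed in 2 of their 14 measured A-class genes. EXP1 had 5.58 and 5.49 in red light, against 8.47 and 8.48 in darkness, and fell by 2.94 (SE 0.20, limma adjusted p = 9.59e-05). EXP8 had 2.87 and 2.81 in red light, against 5.00 and 5.29 in darkness, and fell by 2.31. The other 12 lay between -0.58 and 0.03, and none of 11 B-class expansins was called. PMEI8, an inhibitor of pectin methylesterase, had 6.84 and 7.16 in red light, against 10.93 and 11.42 in darkness, and fell by 4.17 (SE 0.27). BURP16, a BURP-domain protein counted with the wall genes, had 11.96 and 12.17 in red light, against 7.58 and 6.97 in darkness, a rise of 4.79 (SE 0.51, limma adjusted p = 0.000822).

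Over the 78 genes of cellulose, lignin and wall matrix 9 fell and 5 rose, with 4 falling without WT dark replicate 1, 3 without either WT red light replicate and 20 on a log2(intensity + 16) scale. With all arrays 11.54% of this list fell and 6.41% rose, against 9.04% and 9.44% of all named genes. The cinnamyl alcohol dehydrogenase gene CAD6, of lignin synthesis, fell by 1.84. None of 9 cellulose synthase genes was called. PSK2, which encodes a precursor of the growth peptide phytosulfokine, had 8.29 and 7.49 in red light, against 10.88 and 10.90 in darkness, and fell by 3.0. Of 90 genes of cell division, histones and cytoskeleton 2 rose and 2 fell: TOP6A, subunit A of topoisomerase VI, rose by 2.05 and the CDK inhibitor gene KRP1 by 0.50, and CYCP2-1 (-0.89) and the actin gene ACT3 (-0.77) fell. None of 29 cytosolic ribosome and translation genes was called, and their changes spanned -0.26 to 0.32. KRP1 lost its call without either WT red light replicate or WT dark replicate 1 and CYCP2-1 without WT red light replicate 2 (limma adjusted p from 0.0617 to 0.158).

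Surface and water channel genes held several large falls. LTP-2, a lipid transfer protein, had 4.00 and 4.04 in red light, against 7.96 and 8.01 in darkness, and fell by 3.96 (SE 0.12, limma adjusted p = 1.02e-05). Of 21 CASP-like membrane proteins 2 fell and 1 rose, with OsCASPL1D1 falling by 2.82 and OsCASPL1U2 rising by 2.93. The transporter gene ABCG45 had 4.71 and 3.99 in red light, against 8.58 and 8.49 in darkness, and fell by 4.19. Among aquaporins OsPIP2;7 had 10.34 and 10.82 in red light, against 7.24 and 8.22 in darkness, a rise of 2.85, and OsPIP2;4 fell by 1.76. The tonoplast aquaporin TIP1 fell by 2.51 and TIP3 by 2.43. OsTIP2 had 3.19 and 3.22 in red light, against 8.67 and 4.47 in darkness, and with its dark arrays so far apart its change of -3.37 was not called (limma adjusted p = 0.0869). Of all 26 genes of silicon, boron and aquaporins 4 fell, with 8 falling without WT dark replicate 2 and 2 without either WT red light replicate. OsPIP2;4 lost its call without WT red light replicate 2 or WT dark replicate 1 and TIP3 without either WT red light replicate (limma adjusted p from 0.0643 to 0.147).

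Heat shock genes fell far more often than they rose. Of 48 genes 13 fell and 2 rose, and of 19 small heat shock proteins, chaperones that hold unfolded proteins, 9 fell and 1 rose. HSP16.9A had 5.59 and 5.48 in red light, against 8.21 and 8.02 in darkness, and fell by 2.58 (SE 0.15, limma adjusted p = 5.68e-05). The gene hsp17.9 had 8.40 and 8.82 in red light, against 11.16 and 10.69 in darkness, and fell by 2.32, and HSP18.1 fell by 1.95. CLPB1, the HSP101 disaggregase, had 3.32 and 3.62 in red light, against 6.63 and 5.93 in darkness, and fell by 2.81. The heat shock factor gene HSF02 fell by 2.69. HSP18.8 was the small heat shock gene that rose, at 11.77 and 11.97 in red light, against 10.47 and 10.82 in darkness (1.23).

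Germin and chitinase genes changed by large amounts in a few members. GER2, a germin-like protein, had 9.93 and 9.38 in red light, against 13.08 and 12.88 in darkness, and fell by 3.33 (SE 0.28, limma adjusted p = 0.000239). GER1 fell by 2.90 and GER3 by 1.32, and the other 5 germin genes were not called. Chitinases cut chitin and belong to the defence proteins: Cht11 had 9.45 and 8.78 in red light, against 5.14 and 4.55 in darkness, a rise of 4.27, and Cht9 had 4.89 and 5.46, against 9.52 and 8.40, and fell by 3.78. The Bowman-Birk protease inhibitor gene RBBI3.3 fell by 1.81.

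Of 19 genes of abscisic acid and dehydration 3 fell and 1 rose, the kinase gene SAPK1 (1.05). Type 2C protein phosphatases of clade A are negative regulators of that response and are known to be induced by it. Of 7 measured clade A genes 4 fell and none rose: OsPP2C09 (-1.85), PP2C30 (-1.85), PP2C68 (-1.61) and PP2C06 (-0.93). OsPP2C09 had 7.20 and 7.79 in red light, against 9.74 and 8.95 in darkness. Of the type 2C phosphatases of all clades 12.73% fell and 5.455% rose, against 9.04% and 9.44% of all named genes. Over all 55 phosphatases 7 fell and 3 rose, led by OsPP2C01 (1.41), and 3 fell without WT red light replicate 1 and 4 without WT red light replicate 2. The kinase gene SAPK7 fell by 1.00, the dehydrin gene Dhn1 by 0.90, the bZIP factor genes BZIP23 and TRAB1 by 0.99 and 0.59, and CYP707A6, which degrades abscisic acid, by 1.33. PXG, a caleosin-type peroxygenase gene, had 7.22 and 7.75 in red light, against 10.22 and 9.50 in darkness, and fell by 2.37. PP2C06 and CYP707A6 lost their calls without WT red light replicate 1, SAPK1 and PP2C68 without either WT red light replicate, and TRAB1 without either WT red light replicate or WT dark replicate 1 (limma adjusted p from 0.0543 to 0.205).

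The late embryogenesis genes showed how far single arrays could part. LEA19 had 3.39 and 7.84 in red light, against 7.77 and 6.88 in darkness, and RAB21 had 4.84 and 9.14, against 9.44 and 8.80. In both genes WT red light replicate 1 was low, replicate 2 lay above both dark arrays for LEA19 and between them for RAB21, and neither gene was called (limma adjusted p = 0.423 and 0.284). Of 1331 genes in the lists 22 had red light arrays at least 1 log2 unit apart and 48 had such a gap between their dark arrays, with 3 in both.

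Diterpenoid phytoalexin genes, which make antimicrobial compounds of rice, had large differences and few calls. CPS2 had 7.0 and 4.96 in red light, against 2.29 and 2.43 in darkness, a change of 3.62 (SE 1.19, limma adjusted p = 0.105). CYP71Z7 had 7.77 and 5.71 in red light, against 3.39 and 2.89 in darkness, a change of 3.60 (adjusted p = 0.0868). CYP99A2 (2.49), CPS4 (2.07) and KSL7 (1.96) were likewise above darkness on both arrays without a call. Over all genes, called or not, 21.9% had red light above dark. In each of the phytoalexin genes just named WT red light replicate 1 was the higher array of its group. The fit took in all 8 arrays, so gaps between the OsYHB red light arrays, of different lines, also enter these genes' standard errors. Those OsYHB arrays stood at 2.98 and 7.36 for CPS2, 3.51 and 7.47 for CYP71Z7 and 3.39 and 6.33 for CYP99A2. For CPS4 they stood at 3.22 and 6.66, and for KSL7 at 3.60 and 5.87. The defence gene PBZ1 had 10.17 and 9.77 in red light, against 8.03 and 6.76 in darkness, a change of 2.57 that was not called. Of 17 phytoalexin genes 2 rose, KSL10 (2.03) and CYP76M5 (0.50), and KSL5 fell (-1.36). With only the 4 WT arrays in the fit 8 rose and none fell. KSL10 lost its call without WT red light replicate 1 or WT dark replicate 1, CYP76M5 without either WT red light replicate or WT dark replicate 1, and KSL5 without either WT red light replicate or WT dark replicate 2 (limma adjusted p from 0.0534 to 0.21).

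Beta-glucosidases, which release sugars from glycosides, went both ways: 7 of 27 rose and 6 fell. BGLU22 had 7.47 and 8.26 in red light, against 3.2 and 3.22 in darkness, a rise of 4.65 (SE 0.36, limma adjusted p = 0.000167). BGLU36, also named SFR2, which remodels galactolipids of the plastid envelope, had 7.57 and 7.70 in red light, against 5.26 and 5.19 in darkness, a rise of 2.41, and BGLU31 rose by 1.89. BGLU30 fell by 1.95 from a bright signal, at 11.10 and 10.63 in red light, against 12.99 and 12.64 in darkness. Without WT red light replicate 1 the numbers were 4 and 3, without WT dark replicate 1 the falls numbered 3, and without WT red light replicate 2 they numbered 2.

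Further metabolic and signalling genes stood out singly. PDX12, a subunit of the enzyme of vitamin B6 synthesis, had 9.74 and 9.77 in red light, against 4.83 and 5.90 in darkness, a rise of 4.39 (SE 0.29, limma adjusted p = 9.1e-05), and PDX11 rose by 0.79. SWEET2B, a sugar carrier, had 9.07 and 8.79 in red light, against 6.75 and 6.56 in darkness, a rise of 2.27. The cell wall invertase gene CIN4 rose by 1.35 and CIN1 fell by 0.94. Of 91 calcium sensors and kinases 7 rose (against 9.44% of all named genes) and 3 fell (against 9.04%), with 2 rising without either WT red light replicate. They included the kinase genes CIPK5 (1.32), CPK9 (1.22) and CIPK25 (1.09), and CIPK16 fell by 1.15. None of 12 AP2 and ERF factors was called, and WRKY24 (1.74) and NAC45 (1.18) were the only calls among 6 WRKY and 8 NAC genes. PDX11 lost its call without either WT red light replicate or WT dark replicate 1, CIPK5 without either WT red light replicate or WT dark replicate 2, and WRKY24 without WT red light replicate 1. CIN1 did so without either WT red light replicate (limma adjusted p from 0.0554 to 0.228).

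The same light contrast in OsYHB seedlings, which shares no array with the WT contrast, called 3 of 17905 genes (0.0168%, limma), of which 1 has a name. That gene is HSP24.1, which fell by 1.57 in OsYHB and had a change of -0.37 in WT that was not called. The fit did not pair the OsYHB arrays by line, and its residual variance came from all 8 arrays. The difference between the genotypes' responses, OsYHB minus WT, was tested as the light by genotype interaction. It was called for 4.22% of probe sets, for 1402 of 17905 genes (7.83%), and for 1268 of the 3064 genes called in WT (41.4%). In all 1268 the OsYHB response was smaller than that of WT or of opposite sign. The WT arrays that made the call also enter this difference. Over the 3064 genes the median absolute change was 0.94 in WT, and the median OsYHB response, counted in the direction of WT, was 0.03. CFBP1 had log2 intensities of 11.44 and 11.29 in OsYHB red light and 11.25 and 11.45 in OsYHB darkness, all near the WT red light arrays. It changed by 0.01 in OsYHB against 4.13 in WT, NAS1 by 0.04 against 4.70, ILL3 by -0.40 against -6.93 and OSH1 by -0.04 against -4.44.

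Some WT changes had a counterpart in OsYHB, although none of the OsYHB changes in this paragraph was called. PORA had a change of -1.11 in OsYHB, against -1.15 in WT (interaction adjusted p = 0.945, limma), and IRO3 had 2.33, against 2.34 (adjusted p = 0.993). Nramp1 changed by 2.75 in OsYHB, against 3.73 in WT, and HAK1 by 2.46, against 2.07. CM-LOX1 changed by 2.29, against 3.69, and AMT3-3 by 2.29, against 1.90, and none of these differences was called. The OsYHB red light arrays stood at 7.27 and 9.01 for HAK1, 6.09 and 7.85 for CM-LOX1 and 5.45 and 6.37 for AMT3-3. The defence gene PBZ1 (3.61, against 2.57) lay in the same range. The phytoalexin gene CPS2 changed by 2.90 in OsYHB, against 3.62 in WT, but its OsYHB red light arrays, of different lines, parted widely. They stood at 2.98 and 7.36, against 2.38 and 2.17 in OsYHB darkness, so its OsYHB change rested mostly on the brighter array. PMEI8 had a change of -1.75 in OsYHB, against -4.17 in WT, and AOS4 one of -1.64, against -3.79, with differences of 2.42 and 2.15 that were called (interaction adjusted p = 0.0116 and 0.0119, limma). A difference that was not called does not show that the responses were equal. Its standard error was 0.22 to 1.69 in the genes of this paragraph whose difference was not called.

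**Figure D5:**
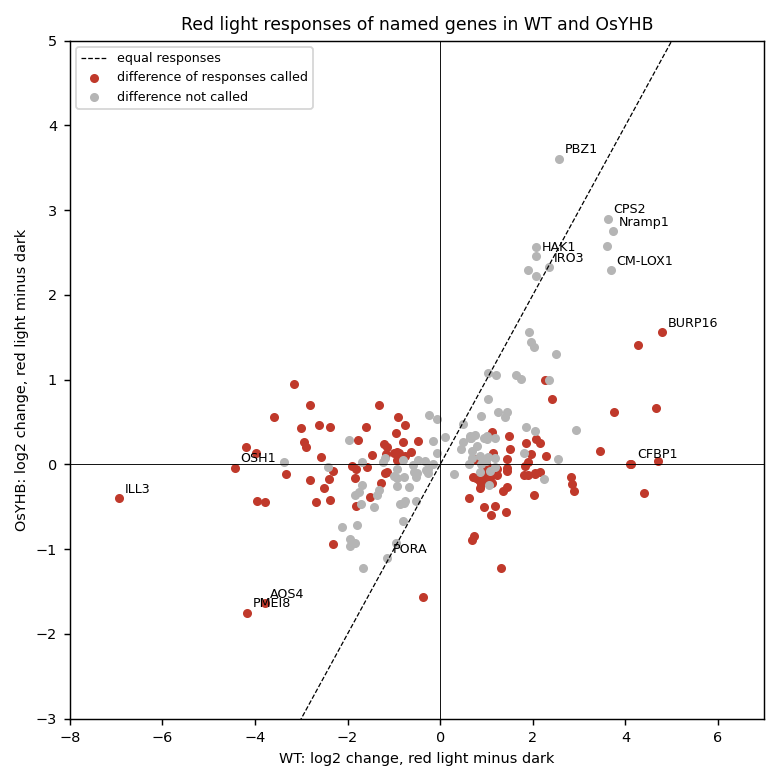
Log2 change with red light in OsYHB (vertical axis) against that in WT (horizontal axis), 1 point per named gene. Red points have a called difference between the genotypes and grey points do not, and the dashed line marks equal responses. Most red points lie along the horizontal line at 0, while PORA, IRO3 and HAK1 lie near the dashed line.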

How the data were processed

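Per the labels' protocols, biotinylated RNA of above-ground tissue was prepared by in vitro transcription and hybridised to Affymetrix arrays. The table deposited by the authors gives a linear intensity for every probe set on each array. The submitters' processing notes name RMA, GCOS and limma with neither version nor role, and the genome build is not given in the sources used here. Values carry no detection call, so dim probe sets may lie at background, and the number of arrays limits the precision. Median intensities of the WT arrays were 20.4 to 20.6, and no further normalization was applied.

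Intensities were converted to log2, and 123 Affymetrix control probe sets of 57381 were left out. GEO's platform annotation gave 1 gene for 22436 probe sets, several for 95 and none for 34727. The 17905 genes were named through the RefSeq gene table of assembly ASM3414082v1, and each stands on its brightest probe set by mean log2 intensity. A limma 3.58.1 model (R 4.3.3) of the 4 group means took in all 8 arrays (4 residual and 4.27 prior degrees of freedom), with two-sided tests and Benjamini-Hochberg adjustment. The OsYHB lines served as replicates of their group in this model, so differences between them enter its residual variance. The fit was tested on simulated data. Tables used pandas 2.3.3 and plots matplotlib 3.10.9 in Python 3.11.15.

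The members and the 48 lists of 1331 genes were chosen with earlier results of these data known. Lists were built from gene names, with 219 entries dropped by name, and the PP2C, beta-glucosidase and chlorophyll breakdown lists were added later. The families within lists were grouped after values were seen. Named genes were the 15 largest called changes in each direction, the 2 largest per list of at least 4 genes and direction, and a few landmark genes, 134 in all. A further 85 were chosen after their values were seen. The replicate numbers do not pair the WT arrays, whose deviations from group means correlated at 0.0932. A planned search of promoters for motifs was not run, since no sequences were used here. Alternatives are given in the closing section.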

Additional observations from a re-analysis of the deposited data

Results flagged for a closer look

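The red light response differed between the genotypes for 116 of the 219 genes named here, by limma's test of the light by genotype interaction (adjusted p below 0.05). Each value is the OsYHB response minus the WT response on the log2 scale, so a value of opposite sign to the WT change means a smaller or opposite response in OsYHB. The interaction was called for 7.83% of all genes and for 41.4% of the genes called in WT. Of the 219 genes 195 were called in WT, and the WT arrays behind those calls also enter this difference.

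Among photosynthesis, pigment and light signalling genes higher in WT red light the difference was -4.12 for CFBP1, -2.98 for GLO5, -2.39 for GLO1, -2.24 for PSY2, -2.19 for RCABP69, -2.02 for LFNR1 and -1.90 for CHLH. It was -1.77 for CAO, -1.60 for PSAH, -1.57 for CRYD, -1.52 for GDCSH, -1.48 for GluTR, -1.38 for PSY1 and -1.34 for rca. It was -1.14 for CLA1, -1.13 for PHOT2, -1.05 for CHLP, -1.03 for NYC1 and -1.01 for CAB2R. Among photosynthesis, pigment and light signalling genes lower in WT red light the difference was 1.09 for PHYA. Among clock, flowering and homeobox genes higher in WT red light the difference was -3.27 for MADS56, -1.15 for HOS59, -1.12 for ZHD10, -1.07 for MADS50, -1.02 for GHD8 and -0.74 for HD2. Among clock, flowering and homeobox genes lower in WT red light the difference was 4.40 for OSH1, 4.10 for HOS9, 3.07 for HOS16, 1.58 for HOX17, 1.55 for NMADS1, 1.12 for HOX8, 1.05 for HOX1 and 0.98 for Hox28. Among nitrogen, metal, sugar and transport genes higher in WT red light the difference was -4.66 for NAS1, -4.09 for NAS2, -3.20 for NIA1, -3.13 for NAAT1, -3.08 for OsPIP2;7, -2.15 for AMT2-1 and -1.95 for Fd-GOGAT. It was -1.65 for CIN4, -1.28 for SWEET2B, -1.20 for GLN2 and -1.13 for ABCG42. Among nitrogen, metal, sugar and transport genes lower in WT red light the difference was 4.39 for ABCG45, 4.10 for MT4C, 2.23 for TIP1, 2.22 for MT1B and 0.91 for SSI.

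Among redox, proteolysis and vitamin genes higher in WT red light the difference was -4.73 for PDX12, -1.84 for OsTrx03, -1.83 for OsTrxm5, -1.72 for APX8, -1.23 for FTSH9, -1.06 for GRXS7 and -1.02 for OsTrxy. It was -0.94 for FTSH2, -0.85 for FTSH7 and -0.70 for APX4. Among redox, proteolysis and vitamin genes lower in WT red light the difference was 1.34 for FTSH3 and 1.30 for GST-I. Among hormone and phosphatase genes higher in WT red light the difference was -1.97 for OsPP2C01 and -1.45 for LOG. Among hormone genes lower in WT red light the difference was 6.53 for ILL3, 4.16 for GH3.2, 2.81 for IAA20, 2.06 for IAA9, 2.05 for PP2C68, 1.88 for IAA18 and 1.47 for LOGL10. It was 1.46 for ACO1, 1.34 for CKX5, 1.13 for SAPK7, 1.08 for PP2C06, 1.07 for ARF16 and 1.00 for Dhn1. Among wall, lipid, cell division and defence genes higher in WT red light the difference was -3.99 for BGLU22, -3.23 for BURP16, -2.86 for Cht11, -2.16 for TOP6A, -1.86 for BGLU31, -1.64 for BGLU36 and -1.32 for BGLU3. Among wall, lipid, cell division and defence genes lower in WT red light the difference was 3.53 for LTP-2, 3.52 for OsCASPL1D1, 3.33 for Cht9, 3.22 for GER2, 3.2 for EXP1, 3.11 for GER1 and 2.42 for PMEI8. It was 2.23 for EXP8, 1.96 for PXG, 1.75 for RBBI3.3, 1.68 for CAD6, 1.03 for CYCP2-1 and 0.87 for ACT3.

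Among heat shock, kinase and other factor genes higher in WT red light the difference was -2.54 for CIPK5, -1.69 for CIPK25, -1.67 for NAC45, -1.59 for HSF4, -1.35 for CPK9 and -1.28 for HSP18.8. Among heat shock, kinase and remaining genes lower in WT red light the difference was 3.42 for PSK2, 2.67 for HSP16.9A and 2.62 for CLPB1. It was 2.25 for HSF02, 2.15 for AOS4, 2.03 for CYP707A6 and 1.38 for hsp17.9. It was 1.32 for BU1, 1.24 for CML11, 1.06 for CIPK16, 0.80 for RLCK85 and 0.75 for VP1. HSP24.1 had a difference of -1.20, with a change of -1.57 in OsYHB against -0.37 in WT, which was not called in WT.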

How the results depend on the processing

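The fit as reported called 5570 probe sets, a separate fit of only the 4 WT arrays 3329, and fits leaving out 1 WT array 2386 to 5900. The rises numbered 2944, and 1503 to 2840 with 1 array left out. The falls numbered 2626, 1245 with only the 4 WT arrays, and 883 to 3060 with 1 array left out. The interaction, at 2414, ranged from 809 to 3304 with 1 WT array left out. The low ends came without WT red light replicate 2 and the high ends without WT dark replicate 2, and a lone array was assumed to vary like the other groups. Rises made up 52.85% of the calls, 62.6% with only the WT arrays, 54.28% after quantile normalization, 47.38% with 1 probe set per gene and 46.01% on a log2(intensity + 16) scale, so falls outnumbered rises under these last settings. With 1 probe set per gene, adjusted over 17905 genes, 1796 rose, against 1608 of the same genes as reported. The median change of all genes was -0.10, with -0.09 after quantile normalization and -0.07 on the log2(intensity + 16) scale. With the replicate number as a block 4856 probe sets were called, and 14 of the 195 called genes named here lost their call. Over all 12 alternatives 81 of the 195 lost the call at least once: 61 without WT red light replicate 1, 65 without WT red light replicate 2, 28 and 22 without WT dark replicates 1 and 2, 29 with only the WT arrays and 25 on the log2(intensity + 16) scale. With only the WT arrays the falls numbered 2 in the wall list, 2 in the aquaporin list, 2 in the antioxidant list and 3 each in the bZIP and bHLH, lipid, PP2C and beta-glucosidase lists, and 4 calcium genes rose. With brighter probe sets, a variance trend, 1 probe set per gene or gene-wise averaging of probe sets, 16 to 18 wall genes and 7 or 8 aquaporin genes fell. No change of a called gene named here reversed its direction under the alternatives that gave a value. The cause of these differences was not tested.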

Other observations

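Among families not yet described, red light lowered more bZIP and bHLH factors than it raised, with 7 of 35 lower and 2 higher, although 3 fell without WT dark replicate 1 or WT red light replicate 1 and 2 without WT red light replicate 2. Lipid and surface genes had 6 of 42 lower and 1 higher, with 3 lower without WT red light replicate 2. Sugar transport, starch and trehalose genes had 5 of 53 higher and 3 lower, with 3 higher without WT red light replicate 2. With all arrays the shares of that list were 9.434% higher and 5.66% lower, against 9.44% and 9.04% of all named genes. Within that list 2 of 12 SWEET sugar carriers rose and none fell, and the starch synthase gene SSI fell by 0.84. ABC and peptide transporters had 2 of 12 higher and 3 lower, with ABCG44 (1.91) and ABCG42 (0.96) rising beside the falls of ABCG45 (-4.19) and ABCC13 (-0.57). ABCC13 lost its call without WT dark replicate 1 or either WT red light replicate, ABCG44 without WT red light replicate 1 and SSI without WT red light replicate 2 (limma adjusted p from 0.0596 to 0.123). Cytochrome P450 genes had 4 of 29 higher and 3 lower, and without WT red light replicate 2 none was higher.

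MAP and receptor kinases with other phosphatases had 2 of 40 higher (5.0%) and 3 lower (7.5%), against 9.44% and 9.04% of all named genes. Among them D1, the alpha subunit of the heterotrimeric G protein, rose by 0.65. Glutathione transferases had 1 of 6 lower (GST-I, -1.18), and vitamin and cofactor genes 3 of 7 higher. MYB factors had 1 of 10 lower. Of 30 expansins and xyloglucan enzymes 2 fell, of 30 chitinases, germins and defence proteins 3 rose and 5 fell, and of 28 potassium and sodium genes 3 rose. The wider root list had 2 of 14 higher, HAK1 and NAR2.2 (1.20), and the seed and embryo list 1 of 14 lower, the embryo regulator gene VP1 (-0.48), which lay at 2.66 and 2.77 in red light, against 3.19 and 3.19 in darkness. VP1, NAR2.2 and HAK1 lost their calls without any 1 of the 4 WT arrays, D1 without WT dark replicate 1 or either WT red light replicate, and GST-I without WT red light replicate 2 (limma adjusted p from 0.0627 to 0.254).

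Of the called genes named here 42 have further, dimmer probe sets, and in 8 at least 1 of these had a change of opposite sign. For these the dimmer probe sets gave -0.42 for CHLH, -0.34 for GLO1, -0.13 and 0.16 for HSF4, -0.11 for LOG, -0.10 for YSL12 and -0.06 for CLA1, and up to 0.08 for CatB and 0.04 for MT2A. Probe sets of IAA8, OsTIP4;1 and GDCSH changed by 0.02, 0.03 and 0.05, while the second probe set of OSH1 changed by -5.48.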
